A study of Urosaurus graciosus
Urosaurus ornatus and Urosaurus graciosus and Urosaurus ornatus with 18 samples.

Results

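Among 22773 genes counted in lizard liver, 8 met a rule on level and order. These lay lower in every animal held at 40 °C than in every animal of the same lineage held at 36 °C. They were chosen by their own values. A gene was taken when its mean over 18 libraries was at least 1 CPM (the count scaled to a library total of 1000000) and when, in each of 3 lineages, all 3 animals at 40 °C lay below all 3 at 36 °C. The rule left out GPAM and SLC15A2 by name. Of 13624 genes with a mean of at least 1 CPM, these 8 make 0.0587%. The fall with heat is therefore how the genes were found, and it is described with no test. GCA, AQP1 and AKAP8 carry symbols, and the other 5 carry placeholder names that the table pairs with no gene name.

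The animals were male Urosaurus lizards. There were 3 hybrids (Hy), 3 parental U. graciosus (Ug) and 3 parental U. ornatus (Uo) held at 36 °C, with a further 3 of each kind at 40 °C, all for 48 h before the liver was taken. Heated and unheated stand for 40 °C and 36 °C in what follows. The animals are named by their letters, which were A, B and D in hybrids at 36 °C and I, K and X at 40 °C, J, R and S in U. graciosus at 36 °C and P, Q and T at 40 °C, and E, F and H in U. ornatus at 36 °C and L, N and O at 40 °C. The labels give no age, no untreated animals, no cross direction or generation for the hybrids and no order of tissue collection. The series set out to compare antioxidant genes between hybrids and their parents.

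As background, the named genes belong to unrelated families. GCA encodes grancalcin, a calcium-binding protein of the penta-EF-hand family known from neutrophils and macrophages of mammals. AQP1 encodes a water channel of red blood cells, endothelium, kidney tubule and bile duct in mammals. AKAP8 encodes a nuclear anchor for protein kinase A that binds chromatin and takes part in the condensation of chromosomes at mitosis. A liver sample mixes hepatocytes with blood, vessel, bile duct and immune cells, so fewer cells of a type and less RNA per cell cannot be told apart.

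Libraries held 15780346 (animal O) to 35002548 (A) counts. In hybrid X and U. ornatus O, both at 40 °C, the most abundant gene took 2.23% and 2.83% of the counts, against 5.66% to 10.7% in the other 16 libraries. TMM factors, which rescale a library by the bulk of its genes, were 1.43 in X and 1.35 in O, and ran from 0.867 (T) to 1.18 (N) elsewhere. Of 14 hepatocyte markers, 12 were in the table. Their summed level ran from 49400 CPM in hybrid X at 40 °C to 145000 CPM in a hybrid at 36 °C, so every library held liver transcripts. In U. ornatus this sum was 84000 to 111000 CPM at 36 °C and 55600 to 81300 CPM at 40 °C, with no overlap and O the lowest. The ranges overlapped in hybrids (98200 to 145000 and 49400 to 123000 CPM) and in U. graciosus (107000 to 144000 and 87200 to 133000 CPM). X and O thus held the lowest hepatocyte sums of their heated groups. The 7 stellate cell and fibroblast markers summed to 221 to 4150 CPM in heated hybrids, against 198 to 377 CPM in unheated hybrids and at most 577 CPM in the other groups. The 4150 CPM belonged to X, which stood far apart there. The part of these cell types in the results was not tested.

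GCA lay lower in heated animals of every lineage. Hybrids A, B and D held 10.5, 17.5 and 16.9 CPM at 36 °C, and hybrids I, K and X held 7.29, 9.55 and 5.98 CPM at 40 °C. U. graciosus J, R and S held 12.2, 38.9 and 33.5 CPM, and P, Q and T held 8.13, 11.8 and 4.10 CPM. U. ornatus E, F and H held 26.6, 24.1 and 25.9 CPM, and L, N and O held 14.1, 18.7 and 13.8 CPM. The gap between groups was narrowest in U. graciosus, where J at 36 °C stood close to Q at 40 °C, and widest in U. ornatus. Group means ± SD (n = 3 each) at 36 and 40 °C were 15.0 ± 3.86 and 7.61 ± 1.81 CPM in hybrids, 28.2 ± 14.2 and 8.02 ± 3.86 CPM in U. graciosus and 25.5 ± 1.33 and 15.5 ± 2.73 CPM in U. ornatus. Beside this, 7 of 8 listed macrophage markers were in the table, none at 0 throughout. Their summed level was 352 to 433 CPM at 36 °C and 225 to 323 CPM at 40 °C in U. graciosus, without overlap. In hybrids it was 266 to 581 and 315 to 1020 CPM, the highest in X, and in U. ornatus 455 to 805 and 539 to 1310 CPM. The ranges overlapped in both, with the highest heated animal above the highest unheated one. The part of macrophages in the level of GCA was not tested.

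AQP1 had the smallest mean fitted change of the named genes. It stood at 12.8, 10.8 and 16.2 CPM in hybrids A, B and D and at 8.28, 8.33 and 9.81 CPM in I, K and X. In U. graciosus it stood at 20.6, 11.3 and 11.5 CPM in J, R and S and at 10.6, 9.14 and 9.08 CPM in P, Q and T. In U. ornatus it stood at 14.4, 16.3 and 15.2 CPM in E, F and H and at 12.7, 4.23 and 13.1 CPM in L, N and O. By library total most of the U. ornatus difference came from animal N, while L and O lay just under E. After TMM, L (11.5 CPM) and O (9.69 CPM) lay further under E (14.3 CPM). In hybrids TMM widened the gap too, with the lowest unheated animal 1.32 times above the highest heated one, against 1.105 times by library total. In U. graciosus TMM narrowed this ratio from 1.063 to 1.016. There J stood far above R and S, which lay close to the heated animals. By library total the mean at 36 °C was 1.51 times that at 40 °C in hybrids, 1.504 times in U. graciosus and 1.53 times in U. ornatus. After TMM these values were 1.687, 1.535 and 1.965. Markers of cell types that hold AQP1 in mammals moved unevenly beside it. The 7 endothelial markers summed to 207 to 292 CPM at 36 °C and 212 to 389 CPM at 40 °C in hybrids, 242 to 307 and 203 to 252 CPM in U. graciosus, and 159 to 259 and 191 to 230 CPM in U. ornatus, overlapping in each lineage. Of 6 erythrocyte markers 3 were in the table, summing to 171 to 307 and 46.9 to 211 CPM in hybrids. They summed to 139 to 294 and 107 to 313 CPM in U. graciosus, and 173 to 243 and 247 to 487 CPM in U. ornatus. By library total the heated U. ornatus were thus all just above the unheated ones. After TMM the erythrocyte ranges in U. ornatus overlapped, at 194 to 242 CPM unheated and 182 to 444 CPM heated. The 3 bile duct markers in the table, of 5 listed, summed to 9.50 to 22.6 and 8.33 to 80.6 CPM in hybrids, 13.5 to 23.1 and 21.2 to 31.1 CPM in U. graciosus, and 8.96 to 13.9 and 10.4 to 17.8 CPM in U. ornatus. Among heated hybrids X held, by library total, the highest endothelial and bile duct sums and the lowest erythrocyte sum. No listed marker of these types in the table was at 0 in every animal, and their part in the level of AQP1 was not tested.

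AKAP8 had the widest gaps of the named genes in both parental species. Hybrids A, B and D held 20.7, 30.4 and 22.3 CPM and hybrids I, K and X held 18.1, 16.6 and 14.8 CPM. In U. graciosus the levels were 26.9, 25.4 and 26.0 CPM in J, R and S against 18.01, 18.04 and 10.4 CPM in P, Q and T. In U. ornatus they were 20.01, 19.91 and 17.5 CPM in E, F and H against 11.5, 12.5 and 7.10 CPM in L, N and O. The lowest animal at 36 °C stood 1.41 times above the highest at 40 °C in U. graciosus, 1.40 times in U. ornatus and 1.15 times in hybrids. The 3 unheated U. graciosus lay close together, at a mean of 26.1 ± 0.764 CPM (SD, n = 3), whereas the heated T stood well under P and Q.

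The remaining members are described by their levels alone. Unnamed gene 1, with a mean of 55.6 CPM over all animals, stood at 71.4, 73.5 and 49.4 CPM in hybrids A, B and D and at 33.4, 29.5 and 15.3 CPM in I, K and X. In U. graciosus it stood at 80.1, 63.1 and 47.5 CPM in J, R and S and at 25.1, 39.9 and 44.9 CPM in P, Q and T. In U. ornatus it stood at 68.9, 153 and 79.8 CPM in E, F and H and at 40.3, 61.8 and 23.4 CPM in L, N and O. F stood far above its group, and the group means differed 2.48-fold in hybrids, 1.74-fold in U. graciosus and 2.41-fold in U. ornatus. Unnamed gene 2 stood at 7.89, 11 and 10.6 CPM in hybrids A, B and D and at 3.12, 2.27 and 1.10 CPM in I, K and X. In U. graciosus it stood at 10.6, 17.98 and 8.85 CPM in J, R and S and at 4.65, 7.62 and 1.97 CPM in P, Q and T. In U. ornatus it stood at 5.05, 10.6 and 8.80 CPM in E, F and H and at 2.69, 4.15 and 1.90 CPM in L, N and O. It had the widest separation of any member in hybrids, where the lowest unheated animal stood 2.53 times above the highest heated one.

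Unnamed gene 3 rested on few counts. Its level was 4.37, 1.81 and 6.53 CPM in hybrids A, B and D and 1.76, 1.73 and 0.847 CPM in I, K and X. In U. graciosus it was 3.06, 3.49 and 3.599 CPM in J, R and S and 2.03, 1.10 and 1.73 CPM in P, Q and T. In U. ornatus it was 5.67, 4.02 and 2.25 CPM in E, F and H and 0.402, 1.13 and 0.127 CPM in L, N and O. These last 3 values stand for 10, 28 and 2 counts, so the 7.21-fold difference of the means in U. ornatus has a wide counting error. In hybrids B at 36 °C lay barely above I at 40 °C.

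LOC121924290 and LOC121921898 met the rule by the smallest margins. LOC121924290 stood at 21.0, 21.8 and 26.7 CPM in hybrids A, B and D and at 20.8, 17.99 and 19.8 CPM in I, K and X. In U. graciosus it stood at 27.0, 32.9 and 30.2 CPM in J, R and S and at 26.6, 25.7 and 16.7 CPM in P, Q and T. In U. ornatus it stood at 17.2, 20.3 and 16.4 CPM in E, F and H and at 11.1, 14.5 and 16.4 CPM in L, N and O. The highest heated U. ornatus reached 0.997 times the lowest unheated one. LOC121921898 stood at 1.60, 1.87 and 1.58 CPM in hybrids A, B and D and at 1.32, 1.082 and 0.498 CPM in I, K and X. In U. graciosus it stood at 2.90, 5.34 and 2.79 CPM in J, R and S and at 0.581, 1.63 and 0.462 CPM in P, Q and T. In U. ornatus it stood at 1.048, 1.31 and 1.09 CPM in E, F and H and at 0.643, 1.047 and 0.634 CPM in L, N and O. There the order rests on E, with 22 counts, against N, with 26 counts in a larger library, a ratio of 0.999, which is far inside counting error.

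**Figure D1:**
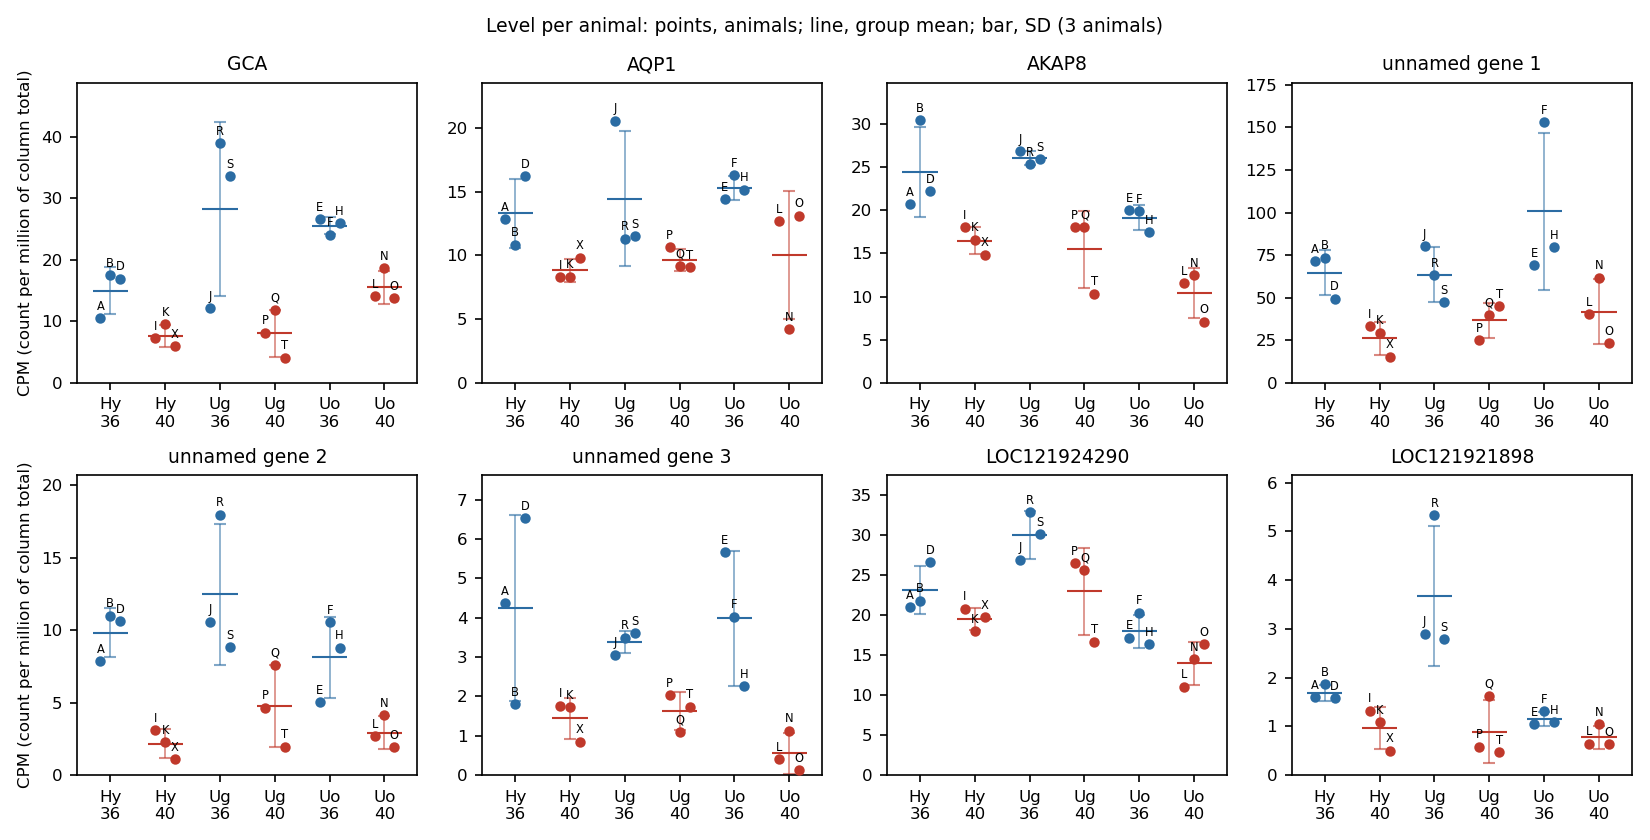
Levels of the 8 genes in each of the 18 animals, in CPM by library total, with 1 panel per gene, lettered points for animals (blue at 36 °C, red at 40 °C), lines for group means and bars for SD (n = 3). In each lineage the 3 red points lie below the 3 blue ones, by a wide gap for AKAP8 in U. graciosus (18.04 against 25.4 CPM) and by almost none for LOC121921898 in U. ornatus (1.047 against 1.048 CPM).

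Just outside the rule stood genes whose order broke by little. PAN3, a subunit of the deadenylase that shortens poly(A) tails, had 128 CPM in the highest heated hybrid and 125 CPM in the lowest unheated one, a ratio of 1.02. LRIG1, an inhibitor of the EGF receptor, had 1.27 CPM in the highest heated U. ornatus and 1.23 CPM in the lowest unheated one, a ratio of 1.03. In all, 9 genes missed the order by at most 5%, counted by the highest heated animal over the lowest unheated one in the worst lineage. The level limit cut off only 2 placeholder genes that had the order, at means of 0.754 and 0.142 CPM, and the members nearest to it inside were LOC121921898 at 1.52 CPM and unnamed gene 3 at 2.54 CPM. The order held in exactly 2 lineages for 125 genes, in 1 lineage for 1333 and in none for 12158. Within a lineage, all 3 heated animals lay below all 3 unheated ones for 3.56% of genes in hybrids, 4.69% in U. graciosus and 3.55% in U. ornatus.

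Fitted changes put the 8 genes on the log2 scale after TMM scaling (edgeR, 40 °C minus 36 °C, mean of 3 lineages ± SE). They were -1.92 ± 0.38 for unnamed gene 3, -1.85 ± 0.30 for unnamed gene 2, -1.35 ± 0.24 for GCA, -1.29 ± 0.30 for LOC121921898, -1.27 ± 0.28 for unnamed gene 1, -0.91 ± 0.17 for AKAP8, -0.78 ± 0.20 for AQP1 and -0.52 ± 0.12 for LOC121924290. The members' median was -1.28, against 0.03 over the 15856 genes fitted. The rule fixed the sign of these values, so nothing is read from it. By lineage, GCA stood at -1.09 ± 0.41 in hybrids, -1.91 ± 0.42 in U. graciosus and -1.06 ± 0.41 in U. ornatus. AKAP8 stood at -0.71 ± 0.29, -0.82 ± 0.29 and -1.21 ± 0.30, and AQP1 at -0.75 ± 0.34, -0.62 ± 0.34 and -0.98 ± 0.34, in the same order. Each SE belongs to the estimate of a single lineage and is not the SE of a difference between lineages. The differences between lineages in the size of the fall were not tested.

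**Figure D2:**
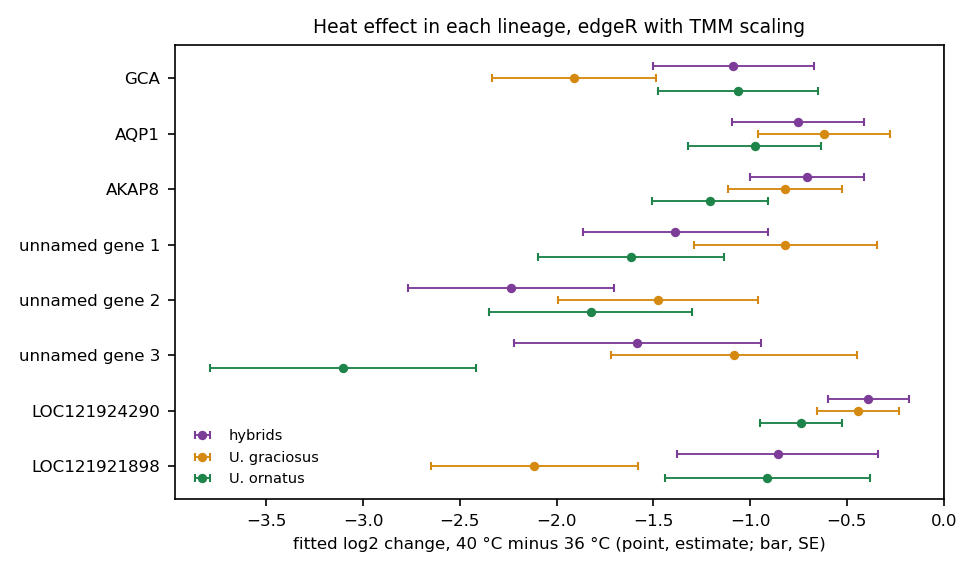
Fitted log2 change from 36 °C to 40 °C for each of the 8 genes in hybrids (purple), U. graciosus (orange) and U. ornatus (green), with points for estimates and bars for SE, after TMM scaling. All 24 estimates lie below 0, from -0.39 for LOC121924290 in hybrids to -3.11 for unnamed gene 3 in U. ornatus.

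Inside the heated groups and by library total, animals X, T and O were each the lowest of their heated group in 6 of 8 members. Over all genes with a mean of at least 1 CPM, and by the same scaling, X was the lowest in 20.9%, T in 54.7% and O in 26.2%. X was the highest in 69.2%, T in 23.6% and O in 53.4%. The rule used the values of these animals and passes only genes in which each of them is low, so the members' order is a description and nothing is read from its difference from all genes. Among unheated animals A was lowest in 4 members, B in 2 and D in 2, J in 3, R in 2 and S in 3, and E in 4, F in 1 and H in 3. Over all genes A, B and D were lowest in 26.1%, 47.8% and 26.1%, and J, R and S in 32.5%, 18.9% and 48.7%. For E, F and H the shares were 25.7%, 41.8% and 32.5%. Nothing is read from these differences either. For X, T and O there were exceptions to the lowest place. X was the highest heated hybrid in AQP1 (9.81 CPM), and T the highest heated U. graciosus in unnamed gene 1 (44.9 CPM). O was the highest heated U. ornatus in AQP1 (13.1 CPM) and LOC121924290 (16.4 CPM). X in LOC121924290 and T in unnamed gene 3 held the middle place. The exceptions for X and O depended on the scaling, as TMM lowers their levels (factors 1.43 and 1.35). After TMM X was the lowest heated hybrid in AQP1 (6.88 CPM, against 9.44 in I and 9.15 in K) and LOC121924290 (13.9 CPM). O then lay below L in AQP1 (9.69 against 11.5 CPM) and below N in LOC121924290 (12.07 against 12.26 CPM). T, with a factor of 0.867, moved the other way. By library total T was the lowest heated U. graciosus in AQP1 (9.08 CPM, against 9.14 in Q). After TMM it lay above Q there (10.5 against 8.23 CPM). Without X, T and O the median fitted change of the members was -1.07, an alternative chosen after seeing the data.

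The rule compares animals only within a lineage, so differences between lineages, averaged over both temperatures, could be tested. Full separation is easier for genes with little spread within groups, so the choice of members and these tests are not wholly independent. The shares over all genes given beside them cover every gene fitted, without such a choice. Between the parental species, 3 of 8 members were called by edgeR's quasi-likelihood test with Benjamini-Hochberg adjustment over 15856 genes, all 3 higher in U. graciosus. This count is close to the background, as 32.2% of all genes were called. LOC121924290 was higher in U. graciosus by 0.89 ± 0.15 on the log2 scale (SE, 6 animals against 6, edgeR adjusted p = 0.000487), AKAP8 by 0.65 ± 0.21 (0.0267) and LOC121921898 by 1.05 ± 0.37 (0.0416). The call for LOC121924290 held in all 26 alternatives tried (highest adjusted p 0.0432). That for AKAP8 was lost without any of S, P, Q, E, H or O (adjusted p 0.0501 to 0.0681, and at most 0.184 over all alternatives). That for LOC121921898 was lost without any of A, B, D, R, S, Q, E, F, H, L or O (0.0501 to 0.159), with no low-count filter (0.0543) and with limma voom (0.057). Its difference was 1.65 among 36 °C animals alone (edgeR adjusted p = 0.014) and 0.43 among 40 °C animals alone (0.735, the highest over all alternatives). The other members had Ug minus Uo differences of -0.26 ± 0.29 for GCA (edgeR adjusted p = 0.512), 0.09 ± 0.24 for AQP1 (0.80), -0.29 ± 0.33 for unnamed gene 1 (0.526), 0.76 ± 0.36 for unnamed gene 2 (0.121) and 0.80 ± 0.45 for unnamed gene 3 (0.190).

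Against U. ornatus the hybrids were higher in 2 of 8 members, against 35.2% of all genes called. LOC121924290 was higher in hybrids by 0.56 ± 0.15 (edgeR, Benjamini-Hochberg adjusted p = 0.00889), a call that held in each of 18 leave-outs of a single animal and was lost among 36 °C animals alone (0.38, 0.149) and among 40 °C animals alone (0.73, 0.0991). AKAP8 was higher by 0.65 ± 0.21 (edgeR adjusted p = 0.0243), a call lost without B, I or H (0.0506 to 0.0706, and at most 0.189 over all alternatives), and its difference was 0.39 among 36 °C animals alone (0.189). GCA lay 0.74 ± 0.29 lower in hybrids (edgeR adjusted p = 0.0577), and AQP1 differed by -0.07 ± 0.24 (0.845). The adjusted p of the other members, LOC121921898 and unnamed genes 1, 2 and 3, ran from 0.150 to 0.882.

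Hybrids and U. graciosus differed in 0 of 8 members by edgeR, DESeq2 or limma voom, and edgeR called 1.82% of all genes. An unadjusted edgeR p under 0.05 was found for 1 of 8 members and for 2522 of all 15856 genes. AKAP8 stood at 0.00 ± 0.21 (edgeR adjusted p = 1) and LOC121924290 at -0.32 ± 0.15 (0.299). GCA was at -0.48 (0.450), AQP1 at -0.17 (0.793) and LOC121921898 at -0.45 (0.595). AKAP8 and LOC121924290 thus stood higher in U. graciosus and in hybrids than in U. ornatus. Reads were aligned to a lizard of another genus, so a difference in transcript level and a difference in how well the lineages' sequences align cannot be told apart.

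Relatives of the named members did not meet the rule, in families chosen by symbol after the members were known. Of 5 other aquaporins tested, 4 lay below 0 with heat and 0 were called by edgeR in either direction. Their mean fitted changes ran from -0.76 to 0.03. Over all 15856 genes fitted, 7331 lay below 0, 73 (0.46%) were called lower and 85 were called higher. AQP9, the liver's glycerol channel, had a change of -0.76 ± 0.24 (edgeR, Benjamini-Hochberg adjusted p = 0.127), close to that of AQP1, and was lower in all heated animals of 2 lineages. AQP3, a water and glycerol channel, stood at -0.34 ± 0.27 (0.533), and AQP11, an aquaporin of intracellular membranes, at -0.34 ± 0.32 (0.605). Of 10 other A-kinase anchor proteins 4 lay below 0. AKAP8L, the closest relative of AKAP8, stood at -0.11 ± 0.09 (edgeR adjusted p = 0.533) and AKAP1, the anchor of the mitochondrial outer membrane, at -0.35 ± 0.20 (0.370). AKAP5, an anchor at the plasma membrane, rose by 3.06 ± 0.62 (edgeR adjusted p = 0.0404) at a mean of 1.70 CPM. Its level was low, from 0 to 1.38 CPM at 36 °C and from 0 to 13.9 CPM at 40 °C. All heated animals were higher in 2 lineages only. Penta-EF-hand genes were taken from a fixed list of 8 symbols, so the table may hold further members of that family. Of the 7 others listed 6 lay below 0 and 0 were called, from -0.58 to 0.14. Sorcin (SRI), a calcium sensor near the ryanodine receptor, stood at -0.23 ± 0.11 (edgeR adjusted p = 0.299) and PDCD6, a calcium-binding partner of ESCRT proteins, at 0.14 ± 0.11 (0.535).

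**Figure D3:**
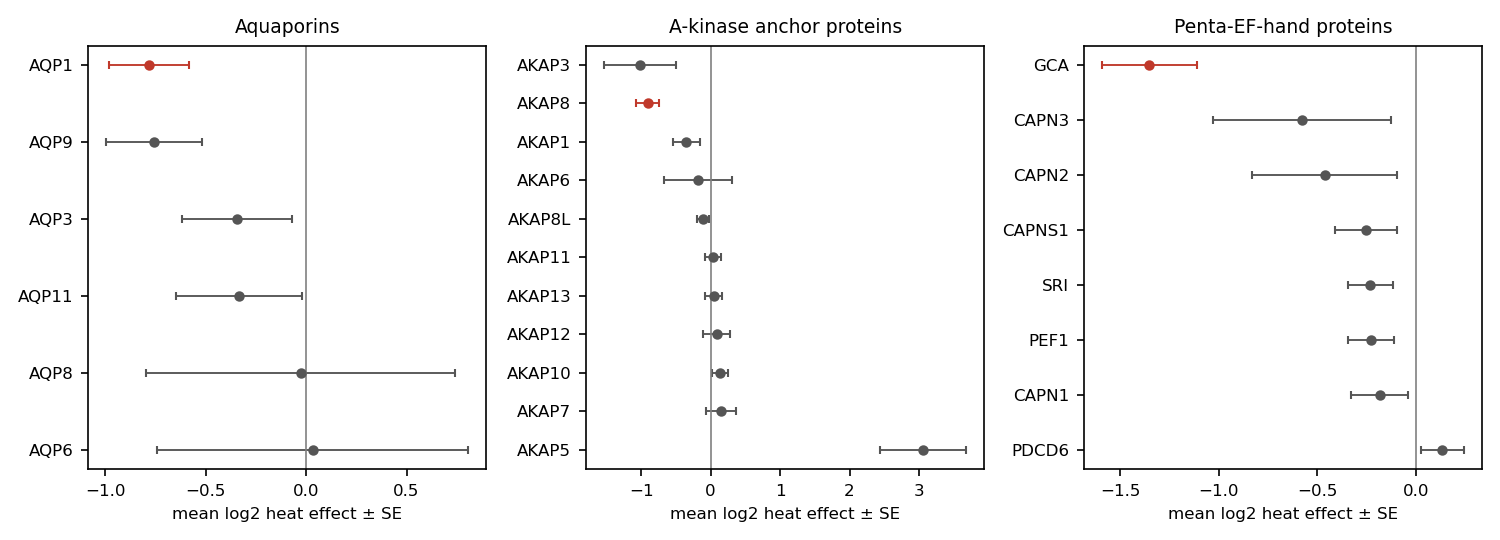
Mean fitted log2 heat change ± SE of aquaporins (left), A-kinase anchor proteins (middle) and penta-EF-hand proteins (right), with the rule's member of each family in red and its relatives in grey. AQP9 lies at -0.76 beside AQP1 at -0.78, AKAP8L lies at -0.11 and the low-count AKAP3 at -1.02, while GCA at -1.35 lies lower than the 7 relatives listed.

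Of the 3 members with symbols, 0 stood in any of the 26 lists of liver functions and cell processes. The list of cytochrome P450 genes and POR had 0 genes in the table, so it could hold no member. The share of all genes with symbols that the lists cover was not counted, so nothing is read from this. The lists hold symbols, so the 5 placeholder members could not be looked up in them. Around AKAP8, the 43 tested cell cycle genes had a median heat change of 0.29 with 9 below 0 and 0 called, and 97 chromatin modifiers had a median of 0.06 with 34 below 0 and 1 called in each direction (edgeR, adjusted p threshold 0.05). For comparison the median over all genes was 0.03.

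The number of genes with the order depended on how libraries were scaled. By library total 8 of 13624 genes lay lower in every heated animal and 114 (0.837%) lay higher. After TMM scaling 45 of 13567 genes (0.332%) lay lower, GPAM and SLC15A2 among them, and 67 (0.494%) lay higher, 47 of which were also higher by library total. The scaling shifted the median heat change of all genes by 0.19 on the log2 scale in hybrids, 0.05 in U. graciosus and 0.33 in U. ornatus, downwards in each. Of the 8 members, 7 also met the order after TMM and after DESeq2 size factors. LOC121924290 did not, since hybrid I (23.7 TMM-scaled CPM) then lay above A (22.8) and U. graciosus P (28.1) above J (27.9). GPAM, which starts triglyceride synthesis, and SLC15A2, a peptide transporter, did not meet the order by library total. GPAM stood at 37.9 CPM in heated X and at 32.0 CPM in the lowest unheated hybrid. In U. graciosus it stood at 31.5 CPM in heated Q and at 28.2 CPM in unheated S. SLC15A2 stood at 5.78 CPM in heated X and at 4.89 CPM in unheated hybrid B.

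**Figure D4:**
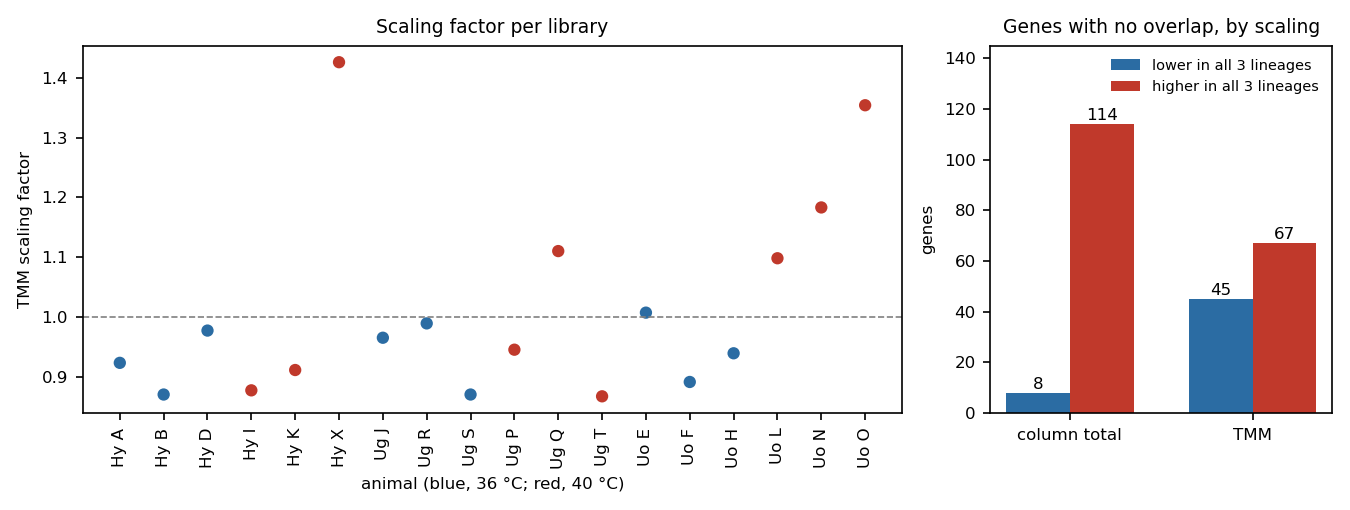
TMM factor of each library (left; blue at 36 °C, red at 40 °C) and the number of genes with no overlap between temperatures in all 3 lineages (right) by library total and after TMM, for lower (blue) and higher (red) genes, GPAM and SLC15A2 included. X (1.43) and O (1.35) have the highest factors, and lower genes went from 8 to 45 while higher genes went from 114 to 67.

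TMM scaling added 36 genes to the 7, 28 of them with symbols, and 35 of the 36 also had the order with DESeq2 size factors. The genes named here from among them were picked after their values were seen, for known roles or size of change. By library total, X stood in the way for 16 of them, Q for 13, L for 14, N for 17 and O for 17, while K did for 2, P for 1, and I and T for 0. A single animal stood in the way for 13 genes. Their mean fitted changes ran from -1.15 to -0.38 with a median of -0.72, and nothing is read from their sign, as the order chose them too.

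AGXT, NQO1 and SERPIND1 are given as examples of the added genes. AGXT, which detoxifies glyoxylate, stood after TMM at 158, 180 and 146 CPM in hybrids A, B and D and at 108, 123 and 28.3 CPM in I, K and X. In U. graciosus it stood at 168, 124 and 140 CPM in J, R and S and at 119, 115 and 74.5 CPM in P, Q and T, and in U. ornatus at 102, 159 and 173 CPM in E, F and H and at 90.9, 93.0 and 65.1 CPM in L, N and O. X, T and O were the lowest of their groups in AGXT, but not in every added gene. After TMM, X (20.1 CPM) and T (18.3 CPM) were the highest of their heated groups in LOC121919151. O (50.7 CPM) was the highest heated U. ornatus in FBXO9. The order of these animals was not counted over the added genes. NQO1, a quinone reductase and target of the oxidative stress factor NRF2, stood at 6.53, 13.4 and 11.3 CPM in U. ornatus E, F and H and at 6.41, 6.33 and 2.81 CPM in L, N and O. In hybrids it stood at 1.30 to 1.86 CPM at 36 °C and 0.950 to 1.12 CPM at 40 °C, and in U. graciosus at 1.65 to 2.22 and 0.400 to 1.64 CPM. The order of NQO1 rested on small gaps in both parental species. SERPIND1, the plasma thrombin inhibitor heparin cofactor II, stood at 1646 to 1945 CPM in unheated hybrids and at 1587, 1636 and 286 CPM in I, K and X, so most of its fall in hybrids came from X.

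OSGEPL1, a mitochondrial tRNA-modifying enzyme, had nearly the same change in each lineage, at -1.13 ± 0.32 in hybrids, -1.06 ± 0.32 in U. graciosus and -1.08 ± 0.32 in U. ornatus. PAN3 did too, at -0.72 ± 0.33, -0.75 ± 0.33 and -0.74 ± 0.33. LRIG1 stood at -0.72 ± 0.31, -1.22 ± 0.32 and -0.69 ± 0.32. PARL, a rhomboid protease of the mitochondrial inner membrane, stood at -0.36 ± 0.21, -0.60 ± 0.21 and -0.91 ± 0.21. SEPSECS, which makes the selenocysteine used in glutathione peroxidases, stood at -0.70 ± 0.26, -0.80 ± 0.26 and -0.48 ± 0.25. BARD1, the partner of BRCA1, stood at -0.29 ± 0.41 in hybrids, within its SE of 0, against -1.12 ± 0.41 and -0.96 ± 0.41 in the parental species. The added genes fall in only 4 of the 26 lists. AGXT stood in amino acid breakdown (41 of 49 genes below 0, median -0.24, 0 called) and SERPIND1 among plasma proteins (33 of 38, -0.44, 0 called). BARD1 stood in DNA repair (47 of 103, 0.02, 1 called lower) and NQO1 among antioxidant genes (27 of 46, -0.03, 0 called). Over all 15856 genes fitted, 7331 lay below 0. The share of all symbols that the lists cover was not counted, so nothing is read from these places.

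**Figure D5:**
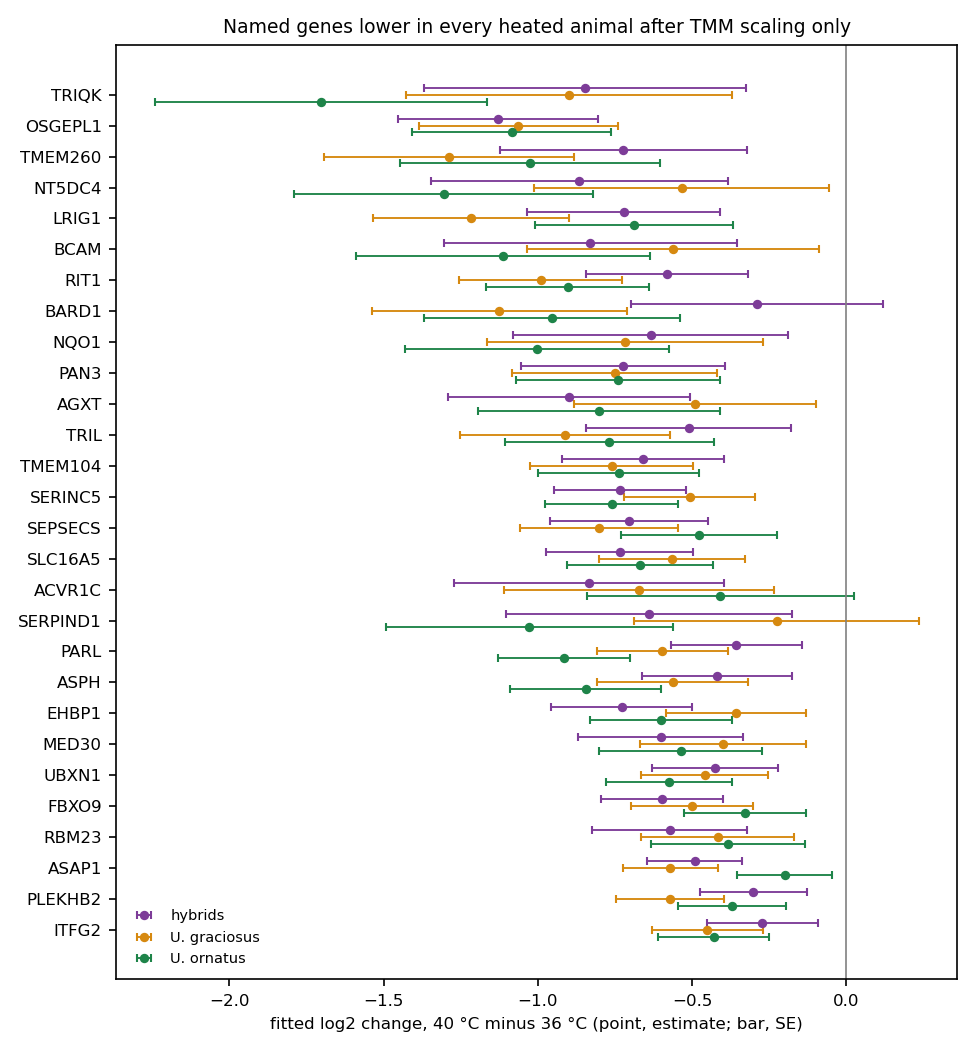
Fitted log2 heat change ± SE in hybrids (purple), U. graciosus (orange) and U. ornatus (green) for the 28 genes with symbols that have the order after TMM scaling and not by library total, sorted by their mean. Every estimate lies below 0, with means from -1.15 (TRIQK) to -0.38 (ITFG2), and the bars of BARD1, ACVR1C and SERPIND1 cross 0 in 1 lineage each.

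Some of the added genes differed between lineages. Between the parental species 13 of 36 were called by edgeR, 8 higher in U. graciosus and 5 lower, against the 32.2% of all genes above. NQO1 was lower in U. graciosus than in U. ornatus by a log2 difference of -2.31 ± 0.32 (edgeR, Benjamini-Hochberg adjusted p = 0.000106) and lower in hybrids than in U. ornatus (-2.52 ± 0.32, 4.61e-05). TMEM260, an enzyme that adds O-mannose to receptors, was higher in U. graciosus by 2.09 ± 0.30 (edgeR adjusted p = 0.000138) and in hybrids by 2.05 ± 0.30 (0.000132) than in U. ornatus. SERINC5, a membrane protein that in mammals restricts retroviruses, was higher by 1.17 ± 0.15 (edgeR adjusted p = 6.53e-05) and 1.39 ± 0.15 (1.4e-05). SEPSECS was lower in hybrids than in U. ornatus (-0.82 ± 0.18, edgeR adjusted p = 0.00279). In hybrids against U. ornatus 11 of 36 were called, against 35.2% of all genes. In hybrids against U. graciosus 2 of 36 were called, against 1.82% of all genes, both placeholder genes and both lower in hybrids.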

How the data were processed

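Liver RNA of 18 animals was sequenced. Per the labels' protocols, TRIzol homogenates were cleaned on RNeasy columns and turned into directional libraries. Per the submitters' processing notes, the authors used Trim Galore 0.6.4, STAR, Subread and DESeq2, and per the series' design text reads were aligned to Sceloporus undulatus, a lizard of another genus. The sources used here give no build, annotation, strand setting or handling of multiply aligned reads. The deposited table holds raw counts from the authors for 22773 genes, 9041 with placeholder names. No genome or annotation was used, so no positions are given and levels are not compared between genes. Of counts from 1 to 20, 71.8% to 76.4% in a library were even, so a count may not equal 1 fragment.

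CPM was the count divided by the library's column total and multiplied by 1000000. The rule asked for a mean of at least 1 CPM and full separation of 3 against 3 animals in each lineage. Counts kept by filterByExpr (15856 genes, all 8 members included) were given TMM factors and a quasi-likelihood model with robust dispersions over all 18 libraries, with a mean for each group (edgeR 4.0.16, R 4.3.3), with Benjamini-Hochberg adjustment over all genes and calls at an adjusted p under 0.05. Heat contrasts describe the members, and lineage contrasts were tested. All members with symbols were named, and of the 5 placeholders 2 by their IDs. Unnamed genes 1, 2 and 3 are the others, numbered in the text and the plots alike. Members and lists were chosen with earlier results of these data known. Alternatives were DESeq2 1.42.0, RLE factors, no low-count filter, limma 3.58.1 voom, only the lineages compared, a single temperature, other CPM limits, other scalings and each animal left out. The pipeline was tested on simulated data. Intervals of fitted changes are SEs, derived as the absolute log2 change divided by the square root of the quasi-likelihood F statistic. Intervals of group means are SDs over animals.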

Additional observations from a re-analysis of the deposited data

How the results depend on the processing

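The number of genes meeting the rule, 8 by library total, was 43 with TMM scaling and 45 with DESeq2 size factors, both without GPAM and SLC15A2. It was 9 with a limit of 0.5 CPM and 6 with 5 CPM. With each animal left out in turn it was 9 to 17, highest without X (17), Q (16) and E (15), since fewer animals must then be in order. It was 31 without X, T and O together, chosen after seeing the data.

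Members called between the parental species, 3 with all animals, were 1 among 40 °C animals alone and 1 to 4 with each animal left out, with 1 left without S, Q, E, H or O. Those called between hybrids and U. ornatus, 2 with all animals, were 3 with DESeq2, with limma voom and with only these lineages fitted. They were 0 among 36 °C animals alone and 0 among 40 °C animals alone. With each animal left out they were 1 to 3, with 1 left without B, I or H. A single temperature uses fewer animals. For hybrids against U. graciosus the count was 0 in all 26 alternatives. No paired analysis was possible because each animal met a single temperature and has a letter of its own. LOC121921898 and unnamed gene 3 had as few as 8 and 2 counts in a library, which limits their order.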
